A study of Mus musculus with 8 samples.

Results

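The genes described here are 10 that serve the sensing of nucleic acids, 8 sensors with an adaptor and a kinase that act behind them, measured in the mouse cochlea: Zbp1, Ifih1, Dhx58, Eif2ak2, Tlr3, Tlr7, Tlr9, Aim2, Mavs and Tbk1. They were found by their symbols among the 47628 named entries of the count tables, all 10 were listed, and all 10 passed the filter on low counts. The set was chosen by function, as sensors and adaptors that can react to nucleic acids released from mitochondria, and with the genotype contrast of these same mice already known, Zbp1 standing out in it. The difference between genotypes is therefore given for these genes as a description. No p-value is printed for a member, and counts of members past a threshold stand only beside the share of all genes past it. Zbp1 was the member with the largest difference: its mean level was 2.01-fold higher in Opa1+/- than in WT cochleae. The log2 fold changes of 8 of the 10 members were smaller than 0.25 in size.

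RNA was sequenced from the cochleae of 4 WT mice (mice 4, 5, 6 and 8) and 4 Opa1+/- mice (mice 2, 7, A and B, where A and B are the 2 animals with 3-digit numbers, in order of number), all untreated littermates aged 21 days. The Opa1+/- mice carry 1 knock-in allele of Opa1 that lacks 4 bases (delTTAG) in every cell, on a mixed background of C57BL/6 J × 129 Sv/Pas, and homozygous embryos do not survive. Opa1 encodes a GTPase that fuses the inner mitochondrial membrane and shapes its cristae. Each library holds the 2 cochleae of 1 mouse, so each value comes from a separate animal. Every library read as male, with 0 to 8 counts of Xist, a transcript of female cells, and 873 to 1384 of the Y-linked Ddx3y.

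Nucleic acid sensors are receptors that recognise RNA or DNA of unusual form or in an unusual place, whether from a virus or from the cell itself. Receptors in the cytosol recognise double-stranded RNA, DNA or left-handed (Z-form) helices, and Toll-like receptors recognise RNA or DNA in endosomes. Many of them signal through adaptors such as MAVS, on the outer mitochondrial membrane, and kinases such as TBK1 to interferon genes. Several sensor genes are themselves induced by interferon.

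Between 15978051 and 20828030 counts per mouse fell on named genes. Opa1 was lower in every Opa1+/- mouse, at 60.4 to 70.02 CPM (counts as a share of the library's counts on named genes, scaled by TMM factors) against 112 to 126 CPM in WT mice, with a log2 fold change of -0.87 ± 0.0677 (SE, edgeR adjusted p = 0.00515). Of 11 marker lists for cell types, all 11 overlapped between the genotypes in their summed CPM, with exact two-sided permutation p-values from 0.171 to 0.886, each 0.886 after Benjamini-Hochberg adjustment. The smallest p that 4 against 4 mice allow is 0.0286. The largest log2 ratio among them was that of the summed erythroid markers, 0.55, with means of 12841 ± 6255 CPM in WT mice and 18797 ± 4627 CPM in Opa1+/- mice (SD), and all 11 of its tested markers had a higher fitted mean in Opa1+/- mice. The same held for all 10 markers of the Schwann cell and myelin list (log2 ratio of sums 0.19) and for all 10 of the endothelial list (0.09). In the other direction, 1 of 10 stria vascularis markers (log2 ratio of sums -0.13) and 2 of 10 hair cell markers (-0.11) had a higher fitted mean. So had 2 of 10 tested B cell markers (-0.03), 2 of 7 plasmacytoid dendritic cell markers (-0.07) and 1 of 4 T and NK cell markers (0.06). On the macrophage, neutrophil and marrow, and spiral ganglion neuron lists it was 9 of 15, 8 of 15 and 5 of 10. The B cell sum came mostly from Ebf1, at 131 to 151 CPM over all mice. The part of these cells in the values of the sensors was not tested. The summed hair cell markers ranged between 225 and 355 CPM over WT mice and between 260 and 282 CPM over Opa1+/- mice. In bulk tissue, fewer cells of a type and less RNA per cell cannot be told apart.

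Promoter sequence was read for the 7 members with an entry among RefSeq windows (GRCm38.p6) that run from 250 bases before to 50 bases after each gene's start. The windows were searched on both strands for the core of the interferon-stimulated response element, GAAANNGAAA, since most interferon-induced genes carry it, and for the gamma-activated site, TTCNNNGAA. The response element core was found in 1131 of 32851 windows, 3.44%, and counted by gene in 3.99% of all genes with a window and in 2 of the 7 members. Both matches lie after the annotated start and are shown 5′ to 3′ on the gene's strand, with the core in capitals. For comparison, Isg15, an interferon-induced ubiquitin-like protein, and Rsad2, an interferon-induced antiviral enzyme, are shown from among the reference genes described further on. In Rsad2 the capitals are the core read on the opposite strand.
Ifih1, bases 33 to 42 after the start, within chr2:62646206-62646235, minus strand: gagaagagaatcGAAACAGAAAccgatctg
Eif2ak2, bases 19 to 28 after the start, within chr17:78882535-78882564, minus strand: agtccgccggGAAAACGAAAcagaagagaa
Isg15, bases -72 to -63, within chr4:156200871-156200900, minus strand: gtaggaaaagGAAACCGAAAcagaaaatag
Rsad2, bases -120 to -111, within chr12:26456553-26456582, minus strand: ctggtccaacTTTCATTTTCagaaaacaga
The Isg15 window held 3 overlapping matches. The response element core was present in 9 of the 13 reference genes with an entry. The gamma-activated site was found in 2726 windows, 8.30%, and counted by gene in 9.55% of all genes with a window, in 1 of the 7 members, Eif2ak2, and in 1 of the 13 reference genes. In Eif2ak2 it lies at bases -178 to -170. These matches are letters in a window and were not tested for binding. Mavs, Tlr3, Tlr9, Aim2 and Tbk1 held neither motif in this window. Zbp1, Dhx58 and Tlr7 have no entry among the windows.

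The members differed widely in level. Per kilobase of merged exons, the mean in WT cochleae was highest for the kinase gene Tbk1, at 11.6 ± 0.944 CPM per kb (SD, n = 4 mice), and lowest for the DNA receptor gene Tlr9, at 0.235 ± 0.0276 CPM per kb. The WT means between them, in CPM per kb, were 8.73 ± 0.501 for Mavs, 6.17 ± 0.600 for Eif2ak2, 4.26 ± 0.510 for Tlr3 and 1.94 ± 0.213 for Ifih1. Below these came Dhx58 at 1.16 ± 0.0559, Aim2 at 0.879 ± 0.209, Tlr7 at 0.500 ± 0.126 and Zbp1 at 0.397 ± 0.0290. The adaptor and the kinase stood above every sensor. Among the WT mice the values of neighbours in this order overlapped for Dhx58 and Aim2 and for Tlr7 and Zbp1, and for no other neighbouring pair. In Opa1+/- mice Zbp1, at 0.794 ± 0.211 CPM per kb, stood above Tlr7, at 0.446 ± 0.0748 CPM per kb, and the other 8 members kept their places.

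**Figure D1:**
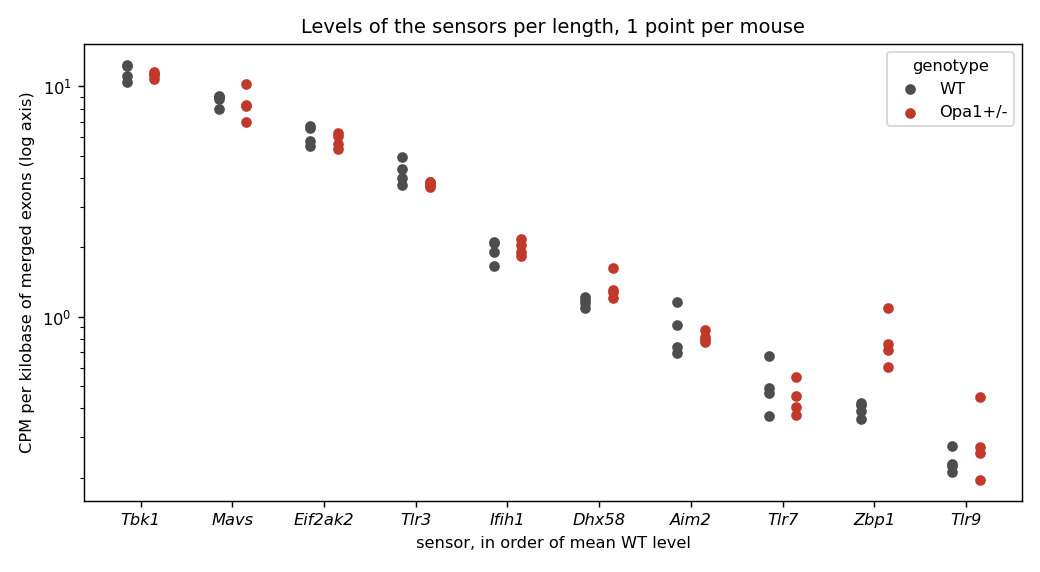
Levels of the 10 genes in CPM per kilobase of merged exons on a log axis, 1 point per mouse, WT in grey and Opa1+/- in red, ordered by the WT mean. From Tbk1 at 11.6 to Tlr9 at 0.235 CPM per kb the WT means fall steadily, and the genotypes lie apart for Zbp1.

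Zbp1 encodes Z-DNA binding protein 1, which binds left-handed DNA and RNA and can engage the kinases RIPK1 and RIPK3. The gene lies at chr2:173206612-173218923 on the minus strand (GRCm38), and no other annotated gene overlaps it. Its counts were 24, 26, 25 and 30 in WT mice 4, 5, 6 and 8, and 36, 77, 41 and 42 in Opa1+/- mice 2, 7, A and B. As CPM the WT mice read 1.37, 1.27, 1.49 and 1.47, and the Opa1+/- mice 2.13, 3.86, 2.54 and 2.68. Every Opa1+/- mouse was above every WT mouse, with mouse 7 the highest of all. Of all 19366 genes tested, 1.98% had every Opa1+/- mouse above every WT mouse, and 2.33% had every one below.

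The mean Zbp1 level in CPM was 1.40 ± 0.102 over the 4 WT mice and 2.80 ± 0.743 over the 4 Opa1+/- mice (SD), and the fitted log2 fold change was 1.004 ± 0.214 (SE). Zbp1 counts are low, so the value of each mouse carries a large counting error. The coefficient of variation between WT mice was 7.31%, below the 19.5% that counting alone gives at a mean of 26.2 counts. In Opa1+/- mice it was 26.5%, against 14.3% from counting alone. The exact 95% Poisson interval of the highest WT mouse, mouse 6, ran from 0.967 to 2.20 CPM and overlapped that of the lowest Opa1+/- mouse, mouse 2, from 1.49 to 2.95 CPM. It also overlapped those of mouse A, from 1.82 to 3.44 CPM, and mouse B, from 1.93 to 3.62 CPM. Mouse 7, at 3.05 to 4.82 CPM, lay above the intervals of all 4 WT mice. These intervals cover counting error only. Without mouse 7 the log2 fold change was 0.80, the lowest value when any single mouse was left out.

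**Figure D2:**
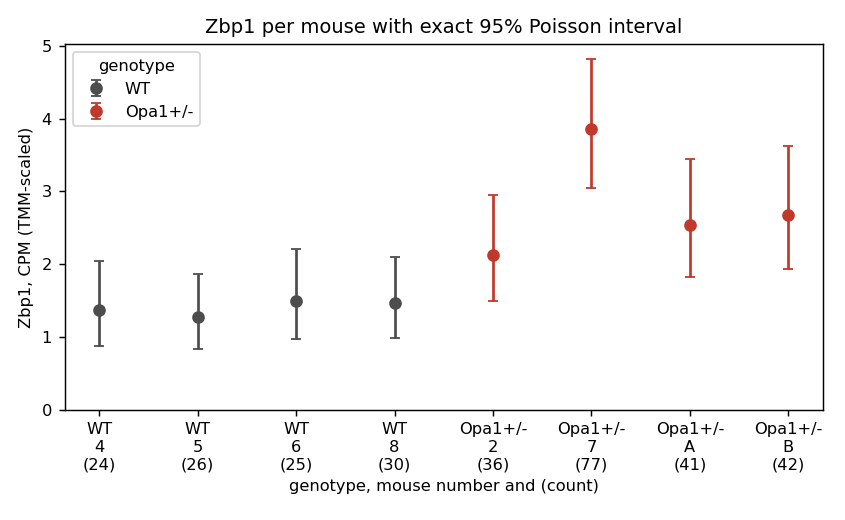
Zbp1 in CPM for each mouse, WT in grey and Opa1+/- in red, with the exact 95% Poisson interval of its count and the count in parentheses. Points of the genotypes do not overlap, from 1.27 to 1.49 CPM in WT and from 2.13 to 3.86 CPM in Opa1+/- mice. The intervals of Opa1+/- mice 2, A and B do overlap that of WT mouse 6, and only that of mouse 7 lies above all WT intervals.

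Ifih1 encodes MDA5, a helicase that binds long double-stranded RNA in the cytosol. It was measured at 17.1, 17.3, 13.5 and 15.7 CPM in WT mice 4, 5, 6 and 8 and at 15.6, 16.8, 17.8 and 15.1 CPM in Opa1+/- mice 2, 7, A and B. The genotypes overlapped almost entirely, and the log2 fold change was 0.04 ± 0.0987 (SE), which turned to -0.03 without WT mouse 6 and to -0.0011 without Opa1+/- mouse A. With 226 to 354 counts per mouse, Ifih1 was read far more deeply than Zbp1.

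Dhx58 encodes LGP2, a helicase of the same family that lacks the signalling domains and modulates MDA5. Its values were 3.77, 4.00, 3.88 and 3.57 CPM in WT mice and 3.96, 5.31, 4.27 and 4.21 CPM in Opa1+/- mice. All 4 Opa1+/- mice were above the WT median, and Opa1+/- mouse 2 lay below WT mouse 5, so the genotypes overlapped. The log2 fold change was 0.22 ± 0.136 (SE), and it was 0.12 without mouse 7, the highest of the 8. Dhx58 shares 141 exon bases with the antisense gene Dhx58os, and whether counting used strand is not given in the sources used here.

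Eif2ak2 encodes PKR, a kinase that is activated by double-stranded RNA and phosphorylates the translation factor eIF2α. It was measured at 33.7, 34.6, 28.2 and 29.7 CPM in WT mice and at 32.2, 31.3, 27.4 and 28.7 CPM in Opa1+/- mice. The 2 ranges overlapped, and the log2 fold change was -0.08 ± 0.0842 (SE). With 1 mouse left out it lay between -0.13 (WT mouse 6 left out) and -0.029 (WT mouse 5 left out). Eif2ak2 and Ifih1 are the members with a response element core in the window shown above, and their log2 fold changes were both under 0.1 in size. Zbp1, the member with the largest difference, has no window, and a link between motif and level was not tested. In Eif2ak2, 174 exon bases are shared with genes on the opposite strand.

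Tlr3 encodes the endosomal receptor for double-stranded RNA. Its values were 20.9, 22.8, 25.6 and 19.5 CPM in WT mice and 19.3, 20.0, 19.9 and 19.0 CPM in Opa1+/- mice. Each Opa1+/- mouse lay below the WT median, and WT mouse 8 lay below Opa1+/- mice 7 and A, so the genotypes overlapped. The log2 fold change was -0.18 ± 0.0884 (SE), and it was -0.10 without WT mouse 6, the highest of the 8. Tlr3 shares 381 exon bases with the antisense gene Gm45542.

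Tlr7 encodes the endosomal receptor for single-stranded RNA and is X-linked. It was measured at 2.00, 1.51, 2.75 and 1.91 CPM in WT mice and at 1.54, 1.65, 1.86 and 2.23 CPM in Opa1+/- mice. The WT mice spanned the whole range of the Opa1+/- mice, and the log2 fold change was -0.16 ± 0.223 (SE). It became 0.0092 without WT mouse 6, the highest of the 8. Tlr7 is known from macrophages and plasmacytoid dendritic cells. The summed macrophage markers (15 of 15 listed, none at 0 in all mice) spanned 224 to 348 CPM over WT mice and 257 to 325 CPM over Opa1+/- mice. Their highest value, too, was in WT mouse 6 and their lowest in WT mouse 5, which were also the highest and the lowest WT mice for Tlr7. The summed plasmacytoid dendritic cell markers (8 of 8 listed, none at 0 in all mice) spanned 239 to 346 CPM over WT mice and 249 to 291 CPM over Opa1+/- mice, most of it from Tcf4 and Pacsin1, which other cells also express. Siglech, a defining marker of these cells, was low, between 3.86 and 6.45 CPM in WT mice and between 3.51 and 5.04 CPM in Opa1+/- mice. The part of these cells in the Tlr7 values was not tested.

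Tlr9 encodes the endosomal receptor for DNA rich in unmethylated CpG, a form that mitochondrial DNA shares with bacterial DNA. It was the least measured member, with counts of 14, 16, 16 and 15 in WT mice and 16, 31, 11 and 14 in Opa1+/- mice. As CPM these were 0.799, 0.781, 0.956 and 0.734 in WT mice and 0.946, 1.55, 0.681 and 0.894 in Opa1+/- mice. The lowest and the highest of the 8 mice were both Opa1+/-. The log2 fold change was 0.34 ± 0.279 (SE) and it rested on mouse 7, since it was 0.045 without that mouse. At the WT mean of 15.2 counts, counting alone gives the value of a single mouse a coefficient of variation of 25.6%.

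Aim2 encodes a cytosolic receptor for double-stranded DNA that assembles an inflammasome with the adaptor ASC (Pycard). Its values were 4.05, 2.44, 3.23 and 2.59 CPM in WT mice and 2.72, 2.81, 2.85 and 3.06 CPM in Opa1+/- mice. The Opa1+/- mice lay close together inside the WT range, and the log2 fold change was -0.10 ± 0.186 (SE). It was 0.058 without WT mouse 4, the highest of the 8. The annotated Aim2 gene spans Cadm3 on the opposite strand, with 0 shared exon bases.

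Mavs encodes the adaptor to which MDA5 signals. It was measured at 26.8, 30.4, 29.5 and 30.2 CPM in WT mice and at 27.7, 27.5, 34.2 and 23.4 CPM in Opa1+/- mice. Mice A and B were the highest and the lowest of all 8, and the log2 fold change was -0.05 ± 0.106 (SE), or 0.023 without mouse B. Tbk1 encodes the kinase that phosphorylates the interferon regulatory factor IRF3. Its values were 48.1, 43.4, 40.9 and 48.5 CPM in WT mice and 43.6, 41.9, 44.2 and 44.9 CPM in Opa1+/- mice. All 4 Opa1+/- mice lay within the WT range, and the log2 fold change was -0.05 ± 0.0662 (SE). Leaving out single mice moved it between -0.095 (WT mouse 6 left out) and -0.019 (WT mouse 8 left out).

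**Figure D3:**
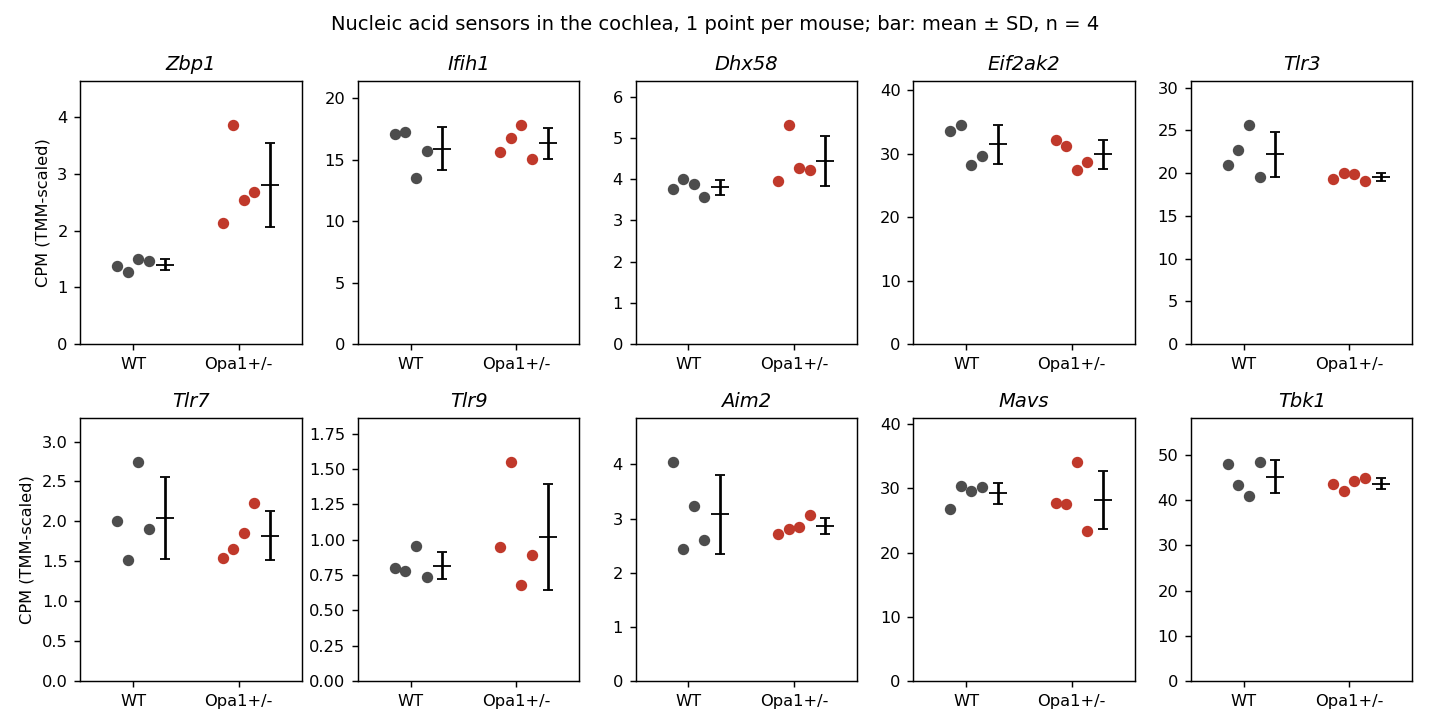
CPM of each of the 10 genes, 1 point per mouse, with the mean and SD of 4 mice beside each genotype and each axis starting at 0. The genotypes are separate for Zbp1, with means of 1.40 and 2.80 CPM, and overlap for the other 9 genes.

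Across the 10 members, 4 had a higher and 6 a lower mean in Opa1+/- mice. The median log2 fold change was -0.05, against 0.00 over all genes tested, and it was also -0.05 over the 9 members other than Zbp1, whose values ran from -0.18 to 0.34. By edgeR's quasi-likelihood test, 0 of the 10 passed an adjusted p under 0.05, as did 0.0258% of all 19366 genes, and 1 of the 10 had an unadjusted p under 0.05. That member, Zbp1, was higher in Opa1+/- mice. Of all genes, 3.51% had an unadjusted p under 0.05 and were higher, and 3.22% were lower. DESeq2 called 0 of the 10 at an adjusted p under 0.05, and 0.119% of all genes. Since the contrast was used in choosing the set, nothing is read from these counts. Mouse 7 was the highest of the Opa1+/- mice for 4 of the 10 members, Zbp1, Dhx58, Tlr3 and Tlr9, mouse B for 3, mouse A for 2 and mouse 2 for 1.

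**Figure D4:**
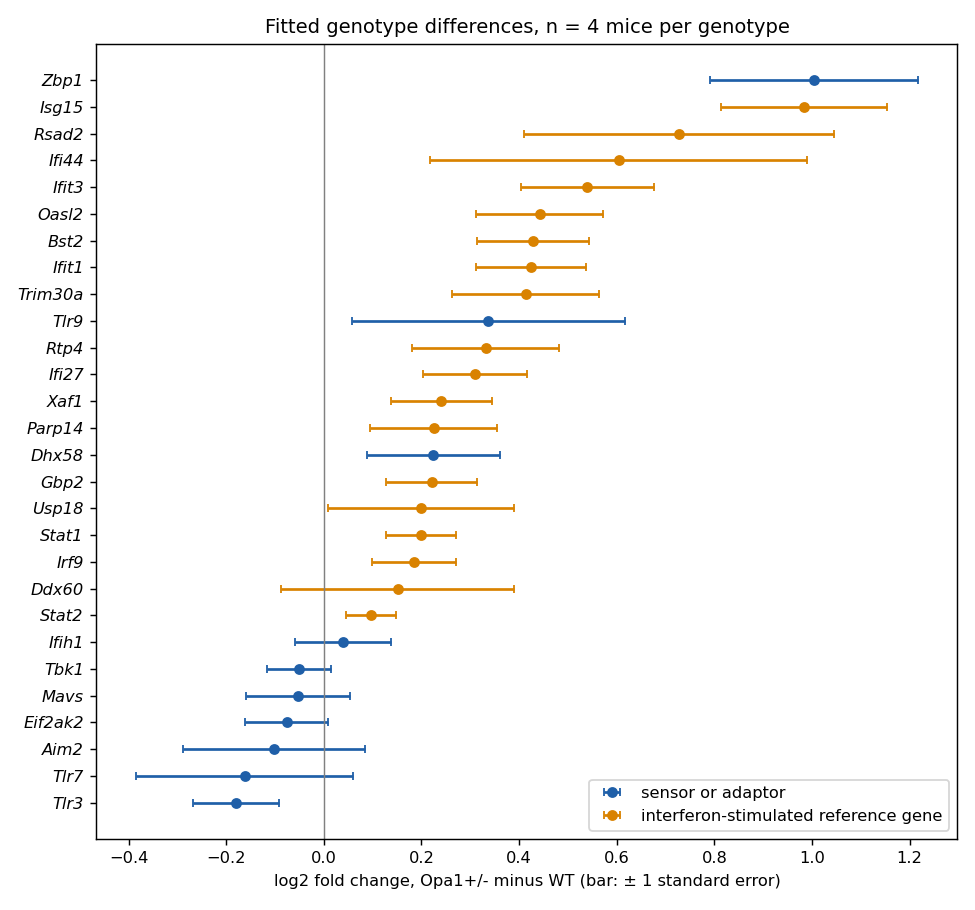
Fitted log2 fold change, Opa1+/- minus WT, for the 10 sensors and adaptors (blue) and 18 interferon-stimulated reference genes (orange), with bars of 1 standard error. Zbp1 at 1.004 and Isg15 at 0.98 lie at the top, and 6 sensors and adaptors, but none of the reference genes, lie below 0.

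The genes whose levels followed Zbp1 most closely over the 8 mice were sought among 17893 genes with a mean of at least 1 CPM, by the correlation of log2 CPM. Among the highest were Angptl7 (Pearson r = 0.956, Spearman rho = 0.833), Hk1 (r = 0.943, rho = 0.786), Slc48a1 (r = 0.935, rho = 0.952) and Glb1 (r = 0.930, rho = 0.929). Angptl7 encodes a secreted angiopoietin-like protein, Hk1 a hexokinase, Slc48a1 a heme transporter and Glb1 a lysosomal galactosidase. Angptl7 read 7.65, 7.57, 7.35 and 7.64 CPM in WT mice and 8.99, 15.7, 13.1 and 14.2 CPM in Opa1+/- mice, again lowest in mouse 2 and highest in mouse 7 within its genotype. None of these 4 was on a list described here. As the highest of so many genes over 8 points that share genotype and library, such correlations are a description and carry no p-value.

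Once the mean of each genotype was subtracted, the genes nearest to Zbp1 were Gm3222 (r = 0.980), Gm3534 (r = 0.978) and Gm12286 (r = 0.975). For Tlr7 they were Smyd2 (r = 0.994), Ccdc177 (r = 0.985) and Dpagt1 (r = 0.982), and for Ifih1 Lgals1 (r = 0.994), Eif2a (r = 0.990) and Rab27b (r = 0.984). For Tbk1 the nearest was Dnaja1 (r = 0.981), a chaperone, for Eif2ak2 Cyp51 (r = 0.986), an enzyme of sterol synthesis, for Aim2 Hmox1 (r = 0.980), a heme-degrading enzyme, and for Tlr9 Celsr3 (r = 0.980). For Tlr3 it was Zbtb43 (r = 0.981), for Dhx58 F2r (r = 0.983) and for Mavs Zfa-ps (r = 0.976).

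The genes that work beside these sensors were examined in 9 lists, 156 genes in all, of which 150 were tested. With edgeR, 0 of the 150 passed an adjusted p under 0.05, whereas 15 were higher and 5 lower at an unadjusted p under 0.05, a threshold that 3.51% of all genes passed as higher and 3.22% as lower. DESeq2 called 1, Isg15, and 0.119% of all genes. Without the interferon-stimulated reference list, 4 of 133 were higher and 5 lower at an unadjusted p under 0.05, and the median log2 fold change was 0.02. The values that follow are therefore levels and differences that did not pass the adjusted threshold in edgeR.

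Of 20 other nucleic acid sensors, 10 had a higher and 10 a lower mean in Opa1+/- mice, and the median log2 fold change was 0.00. The 3 with the lowest p were Dhx9, Tlr13 and Ifi203. Dhx9, an RNA helicase, read 108, 120, 111 and 123 CPM in WT mice and 101, 108, 106 and 95.8 CPM in Opa1+/- mice, all of them below every WT mouse, with a log2 fold change of -0.17 ± 0.0660 (SE, edgeR adjusted p = 0.722). Tlr13, an endosomal receptor for bacterial ribosomal RNA, differed by -0.57 ± 0.236 and Ifi203, a relative of Aim2, by 0.22 ± 0.104. Cgas, the cytosolic DNA sensor that makes cyclic GMP-AMP, was low, between 0.896 and 2.40 CPM in WT mice and between 1.01 and 2.04 CPM in Opa1+/- mice. Ddx58, which encodes the RNA helicase RIG-I, differed by 0.04 ± 0.0859.

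Of 20 nucleases and other enzymes that limit sensing, 13 had a higher and 7 a lower mean in Opa1+/- mice, with a median log2 fold change of 0.03. Trex1, the main cytosolic DNA exonuclease, read 9.82, 7.67, 9.26 and 8.57 CPM in WT mice and 9.52, 11.6, 11.3 and 10.98 CPM in Opa1+/- mice. The genotypes overlapped through mouse 2, and the log2 fold change was 0.30 ± 0.111 (SE, edgeR adjusted p = 0.722). Banf1, a DNA-binding protein that shields DNA from cGAS, differed by 0.19 ± 0.0841, and Pnpt1, a mitochondrial RNA exonuclease that limits double-stranded RNA from mitochondria, by -0.11 ± 0.0591.

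Of 26 genes of the MAVS and TBK1 branch, 11 had a higher and 15 a lower mean, with a median of -0.03. Chuk, a kinase of the NF-kappaB pathway, lay lower in every Opa1+/- mouse than in every WT mouse, at 27.3 to 32.7 CPM against 33.6 to 38.5 CPM, with a log2 fold change of -0.22 ± 0.0743 (SE, edgeR adjusted p = 0.722). The deubiquitinases Cyld and Otud5 differed by -0.15 ± 0.0569 and 0.14 ± 0.0647. Irf3, the substrate of TBK1, had a log2 fold change of 0.00 in size, with means in CPM of 24.4 ± 3.17 in WT mice and 24.3 ± 2.86 in Opa1+/- mice. Irf7, an interferon-inducible relative of Irf3, read 5.54, 5.86, 7.29 and 6.56 CPM in WT mice and 8.69, 11.3, 7.18 and 5.9995 CPM in Opa1+/- mice, with a log2 fold change of 0.40 ± 0.193 and mouse 7 again the highest.

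Of 23 genes of the endosomal Toll-like receptor machinery, 12 had a higher and 11 a lower mean, and 0 had an unadjusted p under 0.05. Unc93b1, the chaperone that carries Tlr3, Tlr7 and Tlr9 to endosomes, differed by -0.04 ± 0.0975, and Myd88, the adaptor of Tlr7 and Tlr9, by 0.04 ± 0.0745. The lowest p-values belonged to Tlr4, a receptor for lipopolysaccharide (-0.26 ± 0.122), Irf5 (-0.27 ± 0.159) and Tab2, an adaptor of the kinase TAK1 (-0.11 ± 0.0715).

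Of 9 tested partners through which ZBP1 is known to lead to cell death, 6 had a higher and 3 a lower mean, 0 had an unadjusted p under 0.05, and the median log2 fold change was 0.01. Ripk3 read 1.54, 1.22, 1.67 and 1.37 CPM in WT mice and 1.36, 1.15, 1.55 and 1.98 CPM in Opa1+/- mice, with mouse 7, the highest for Zbp1, the lowest of all 8. Its log2 fold change was 0.05 ± 0.217. Mlkl, the pore-forming protein downstream of RIPK3, differed by 0.15 ± 0.162, and Cflar, an inhibitor of caspase-8, by -0.12 ± 0.0615. Ripk1 differed by -0.08 ± 0.0826 and the deubiquitinase gene Usp7 by -0.08 ± 0.0573.

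Of 12 inflammasome partners of AIM2, 10 were tested, of which 8 had a higher and 2 a lower mean, with a median of 0.08 and 0 at an unadjusted p under 0.05. Pycard, the adaptor, differed by 0.12 ± 0.211, Casp1, which cleaves interleukin 1β, by 0.33 ± 0.217, Casp4 by 0.18 ± 0.169 and Il1b itself by 0.35 ± 0.344. Of 13 genes around PKR and eIF2α phosphorylation, 6 had a higher and 7 a lower mean. Ddit3, a stress-induced transcription factor, read 30.1, 26.1, 27.96 and 27.6 CPM in WT mice and 33.9, 34.7, 39.2 and 31.7 CPM in Opa1+/- mice, every Opa1+/- mouse above every WT mouse, with a log2 fold change of 0.32 ± 0.0769 (SE, edgeR adjusted p = 0.722). Dnajc3, which encodes an inhibitor of PKR, was lower in every Opa1+/- mouse than in every WT mouse, with a log2 fold change of -0.17 ± 0.0575. Prkra, which encodes an activator of PKR, also did not overlap and was lower, by -0.11 ± 0.0727.

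Of 16 interferon and NF-kappaB outputs, 12 were tested, of which 8 had a higher and 4 a lower mean. Ifnb1, the interferon gene at the end of the MAVS and TBK1 branch, had 0 counts in all 8 libraries, which allows a level of up to 0.0209 CPM (3 counts in the 143740612 of all libraries), and Ifna4 had 1 count, in WT mouse 5. Ccl2, a monocyte-attracting chemokine, read 0.970, 0.830, 0.896 and 0.441 CPM in WT mice and 1.36, 1.65, 1.73 and 1.79 CPM in Opa1+/- mice. The genotypes did not overlap, and the log2 fold change was 1.06 ± 0.255 (SE, edgeR adjusted p = 0.722). Cxcl10, an interferon-induced chemokine, differed by 0.49 ± 0.297 and Ifnar2, a subunit of the interferon receptor, by 0.13 ± 0.0743.

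The 18 interferon-stimulated reference genes are genes known to be induced by interferon, set beside the sensors for comparison. The list was drawn up with results of these mice known and is not independent evidence of its direction. All 18 had a higher mean in Opa1+/- mice, 11 at an unadjusted p under 0.05 (3.51% of all genes) and 0 at an adjusted p under 0.05 in edgeR (0.0258% of all genes), and the median log2 fold change was 0.32. Without WT mouse 8, 5 of the 18 had an unadjusted p under 0.05, and without Opa1+/- mouse 7, 17 of the 18 had a higher mean. Isg15 read 7.31, 5.81, 5.08 and 4.36 CPM in WT mice and 11.8, 9.02, 11.9 and 11.9 CPM in Opa1+/- mice, without overlap, with a log2 fold change of 0.98 ± 0.170 (SE), an edgeR adjusted p of 0.294 and a DESeq2 adjusted p of 2.70e-04. Ifit3 and Ifit1, which encode RNA-binding antiviral proteins, differed by 0.54 ± 0.136 and 0.42 ± 0.112.

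Summed over the 18 reference genes, the WT mice read 369, 397, 365 and 348 CPM and the Opa1+/- mice 488, 466, 473 and 432 CPM. The Opa1+/- mouse with the highest sum was mouse 2, which was the lowest of the 4 for Zbp1, and mouse 7, the highest for Zbp1, was the lowest of the 4 for Isg15. Mice 2 and A were the highest of the Opa1+/- mice for 6 of the 18 genes each, mouse 7 for 4 and mouse B for 2.

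**Figure D5:**
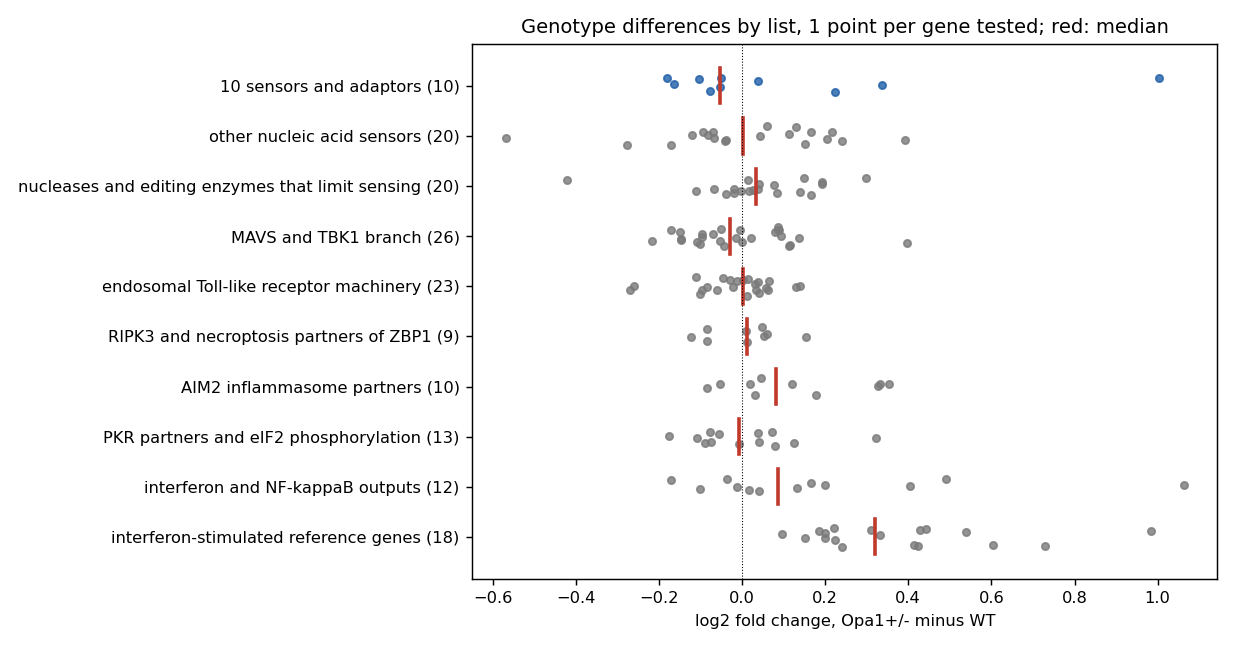
Log2 fold change, Opa1+/- minus WT, of each gene tested, for the 10 sensors and adaptors (blue) and 9 lists of genes that work beside them (grey), with the median of each list in red and the number of genes in parentheses. The medians lie from -0.05 to 0.09 except that of the interferon-stimulated reference genes, at 0.32.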

How the data were processed

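The authors prepared CORALL libraries, sequenced paired reads of 80 nucleotides, mapped them to GRCm38 with STAR (named with FastQC in the submitters' processing notes) and used molecular identifiers. They deposited raw counts per gene symbol for each mouse. The counting program and its use of strand are not given in the sources used here. Entries with a number in place of a symbol (15, 0.112% to 0.124% of counts) were left out.

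The 10 members and all lists were chosen with earlier results of these data known. Library sizes were counts on named entries, scaled by TMM. Genes with a mean normalised count over 10 were tested with edgeR 4.0.16 (quasi-likelihood, Benjamini-Hochberg, adjusted p under 0.05). Both tools were checked on a single simulated data set, in which DESeq2 made more false calls than edgeR. Its spread was drawn from edgeR's own estimates and the tools were filtered differently, so the check cannot rank them. The choice of edgeR did not rest on it. DESeq2 1.42.0, other normalisations and filters, a robust fit, and leaving out mice were alternatives. Sums per mouse were compared by exact permutation over 70 arrangements. Log2 CPM used a prior count of 2. Named genes are the members, the 3 genes of lowest p in each list that had none past the adjusted threshold, their defining partners and the genes most like each member, of which 1 is not reported here. The genes named beyond these were chosen after their values were seen. R 4.3.3, Python 3.11.15 and GENCODE vM21 were used.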

Additional observations from a re-analysis of the deposited data

Results flagged for a closer look

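No value of the 10 sensors and adaptors stood apart from its genotype group by Dixon's criterion for 4 samples. Of the 42 groups examined, 2 sums of cell type markers did. The summed neutrophil and marrow markers were 1524.2 CPM in WT mouse 4, above the 465 to 568 CPM of the remaining WT mice, and the summed spiral ganglion neuron markers were 5335.97 CPM in WT mouse 5, below the 6220 to 6322 CPM of the remaining WT mice. In Opa1+/- mice the same sums spanned 483 to 1255 CPM and 5563 to 6455 CPM. Chance alone marks about 1 in 20 groups.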

How the results depend on the processing

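No paired analysis was run, since the sample titles give only genotype and animal number and no litter that would link a WT to an Opa1+/- mouse. Both animals with 3-digit numbers are Opa1+/-, and the titles do not say what the numbering reflects. The log2 fold change of Zbp1 stayed above 0 in all 15 alternatives, from 0.80 to 1.12. The median of the 10 members, -0.052, ran from -0.04 to 0.019 when 1 mouse was left out and was -0.079 with total counts alone. Signs turned for 5 members. With 1 mouse left out at a time, Ifih1 ran from -0.030 (without WT mouse 6) to 0.083 and was -0.0011 without Opa1+/- mouse A, Aim2 ran from -0.20 to 0.058 (without WT mouse 4), Tlr7 from -0.28 to 0.0092 (without WT mouse 6) and Mavs from -0.15 to 0.023 (without Opa1+/- mouse B). Eif2ak2 was 0.0091 without both Opa1+/- mice with 3-digit numbers. The log2 ratio of summed macrophage markers turned from 0.019 to -0.010 with total counts alone. Over all genes, the 5 calls became 12 with no filter, 23 with DESeq2, 10 with robust estimation, 0 to 9 with 1 mouse left out and 0 without both 3-digit mice. Among the pathway genes DESeq2 called 1 against 0, and the 20 with an unadjusted p under 0.05 ranged from 10 (without WT mouse 8) to 26 (without WT mouse 4). The cause of these shifts was not tested. Low counts limit Zbp1, Tlr7 and Tlr9 most.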
